A study of Mus musculus with 10 samples.

Results

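This account covers 10 transcription factor genes that are associated with primed pluripotency or with the neural fates that lie beyond it, namely Otx1, Otx2, Pou3f1, Pou3f2, Pou3f3, Zic1, Zic2, Zic4, Zic5 and Grhl2. They are 10 of 21631 protein-coding genes, and were chosen by name. All entries of the deposited table that lay within the RefSeq span of a gene, extended by 2 kb on each side, were taken as its sites. That gave 520 of the 1183229 entries of the table, at 403 of its 922427 positions.

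The measured base was 5-carboxylcytosine (5caC), resolved to individual CGs, in DNA from mouse embryonic stem cells. There were 10 samples, 2 technical replicates in each of 5 groups. The analysed cells were wild-type (wt) or carried the label Tdg, and were grown without feeders, on gelatin, in medium with serum and LIF, or in serum-2i, the same medium with 3 µM CHIR99021 and 1 µM PD0325901. The labels give neither the kind of Tdg alteration nor the number of clones. The fifth group, the control, was DNA of serum-grown cells that lack all Tet genes; the table holds no entry under its name, so it is not analysed here. CHIR99021 inhibits the kinase GSK3 and PD0325901 the kinase MEK. Naive and primed are the names the series' design uses for the culture states, without saying which medium is which.

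TET enzymes oxidise 5-methylcytosine stepwise to 5caC. Thymine DNA glycosylase, the product of Tdg, excises 5caC, and repair then restores an unmodified cytosine. A cell without that activity keeps 5caC where the oxidation took place, so a map of 5caC in such cells marks DNA that was methylated and then oxidised. OTX2 is a homeodomain factor that redirects OCT4 to new enhancers as cells leave the naive state, and POU3F1 (OCT6) rises in the same window. OTX1 is its paralogue and acts in the forebrain. POU3F2 (BRN2) and POU3F3 (BRN1) are POU factors of neural progenitors. The ZIC proteins are zinc-finger factors of the neural plate, neural tube and cerebellum, and their genes lie in neighbouring pairs, Zic1 with Zic4 and Zic2 with Zic5. GRHL2 is a grainyhead factor that keeps epithelial enhancers active, also as naive cells move toward the epiblast.

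The promoter windows show how few CGs beside the annotated starts carried listed 5caC. RefSeq promoter sequences of build GRCm38.p6, each with 250 bases before and 50 after a gene start, were matched for 6 of the genes, in 9 windows with 137 CGs. Of these CGs, 2.19% were listed in serum Tdg cells (3 entries) and 1.46% in serum-2i Tdg cells (2 entries). Among the Otx2 windows 2 overlap and share 5 CGs, which were counted in each, 2 of the 5 being listed. Over all 32585 promoter windows the shares were 2.76% and 1.78%, and among windows with at least 10 CGs 2.04% and 0.669%. These are pooled shares of few entries and say nothing of single genes. In serum-2i wt cells the share was 1.46%, and both entries were the same Otx2 CG in the overlapping windows. The share there was 0.178% over all windows and 0.0439% among windows with at least 10 CGs. Letters are given 5′ to 3′ on the strand of the gene, with every CG in capitals. The first sequences hold a listed CG (the Otx2 window that overlaps the outermost one, and holds the same listed CGs, is not printed), and the last, of Zic1, is the window with the most CGs, none of them listed.
Otx2, outermost start, chr14:48667595-48667894, minus strand: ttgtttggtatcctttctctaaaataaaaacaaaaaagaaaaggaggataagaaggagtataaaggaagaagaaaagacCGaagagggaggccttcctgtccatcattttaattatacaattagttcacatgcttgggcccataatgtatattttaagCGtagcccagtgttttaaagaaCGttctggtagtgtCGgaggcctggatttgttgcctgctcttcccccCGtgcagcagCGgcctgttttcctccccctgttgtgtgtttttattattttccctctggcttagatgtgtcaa
Otx2, inner start, chr14:48665060-48665359, minus strand: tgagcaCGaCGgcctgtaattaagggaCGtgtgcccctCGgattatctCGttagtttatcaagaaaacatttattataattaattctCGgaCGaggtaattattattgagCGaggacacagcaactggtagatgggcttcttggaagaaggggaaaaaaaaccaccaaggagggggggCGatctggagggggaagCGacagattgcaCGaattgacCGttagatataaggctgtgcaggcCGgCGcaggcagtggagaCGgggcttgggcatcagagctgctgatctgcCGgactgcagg
Zic4, chr9:91368722-91369021, plus strand: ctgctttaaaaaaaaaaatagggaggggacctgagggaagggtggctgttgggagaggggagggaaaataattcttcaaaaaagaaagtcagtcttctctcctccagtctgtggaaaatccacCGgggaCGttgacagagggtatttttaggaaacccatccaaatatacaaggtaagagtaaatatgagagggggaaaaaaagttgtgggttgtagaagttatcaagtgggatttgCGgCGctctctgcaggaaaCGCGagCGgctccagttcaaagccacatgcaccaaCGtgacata
Zic1, chr9:91365719-91366018, minus strand: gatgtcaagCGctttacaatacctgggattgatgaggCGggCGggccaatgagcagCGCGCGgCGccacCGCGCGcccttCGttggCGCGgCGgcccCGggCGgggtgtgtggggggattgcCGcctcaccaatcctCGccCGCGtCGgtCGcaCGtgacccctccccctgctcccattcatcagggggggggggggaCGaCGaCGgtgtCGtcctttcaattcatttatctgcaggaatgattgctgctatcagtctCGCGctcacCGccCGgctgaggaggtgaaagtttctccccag

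In the outermost Otx2 window, the CG that starts at base 159 was listed in serum-2i wt cells (coverage 8.5), and the CG at base 195 in serum Tdg cells (8.5). The CG at base 259 of the inner Otx2 window was listed in serum-2i Tdg cells (8.5). In the Zic4 window the CG at base 292, just past the start, was listed in both Tdg groups, with a coverage of 21 in serum and 11.5 in serum-2i. The Zic1 window had 31 CGs, the Pou3f2 window 24, the Pou3f3 window 18 and the Zic5 window 15, and no group listed any of them. A CG that is not listed has an unknown value, since the listing rule is not stated. The lowest listed coverage was 3 in serum wt, 4 in serum-2i wt and 6 in each Tdg group. In serum wt cells 1 listed site (coverage 5) lay in Pou3f3, 70 bp past its start and therefore just outside its window.

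Coverage is the authors' value per position and group, read as the mean of the 2 technical replicates. In all, the serum wt group listed 8685 sites, serum-2i wt 110753, serum Tdg 374488 and serum-2i Tdg 689303. Summed coverage ran from 43172 in serum wt to 12348368 in serum-2i Tdg, and the lowest listed value from 3 to 6. The serum-2i Tdg group was the deeper of the Tdg groups, with 1.84 times the sites and 1.65 times the summed coverage of the serum Tdg group. The table gives no value per replicate, so the spread between replicates is unknown and no p-value was computed. In DNA from a whole culture, fewer cells with 5caC at a site and less 5caC per cell cannot be told apart.

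Most listed 5caC sites at these genes lay in Tdg cells, and more of them in serum than in serum-2i. The whole table also lay mostly in Tdg cells, with 374488 of its 1183229 entries in serum Tdg and 689303 in serum-2i Tdg. Every one of the 10 genes had a listed site in both Tdg groups, against 4 in serum wt and 4 in serum-2i wt cells. Together, 320 sites of the windows were listed for serum Tdg, 179 for serum-2i Tdg, 16 for serum-2i wt and 5 for serum wt. Over their joint length of 241 kb this was 1.33, 0.743, 0.0664 and 0.0208 sites per kb in the same order. Among all protein-coding genes with the same flanks, 72.0% had a site in serum Tdg, 80.6% in serum-2i Tdg, 18.5% in serum wt and 61.1% in serum-2i wt cells. Their median density was 0.134 sites per kb in serum Tdg and 0.313 in serum-2i Tdg cells, so the order of the media at these genes was the reverse of the one over all genes. For the gene set the median density was 1.23 sites per kb in serum Tdg and 0.375 in serum-2i Tdg cells.

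**Figure D1:**
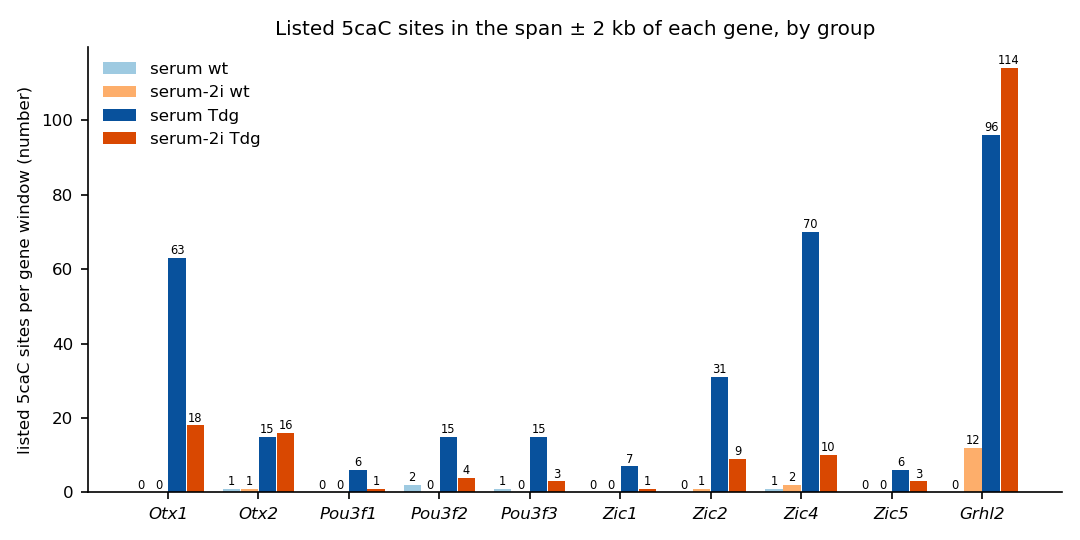
Number of listed 5caC sites in the window of each gene (vertical axis) for the 4 groups of the table (coloured bars, value above each bar). In 8 genes the serum Tdg bar is higher than the serum-2i Tdg bar, while Otx2 (15 and 16 sites) and Grhl2 (96 and 114 sites) go slightly the other way, and wt bars do not exceed 12.

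Of the 10 genes, 8 listed more sites in serum than in serum-2i Tdg cells although the serum group was the shallower. Among all protein-coding genes with a site in either Tdg group, 24.7% did so, and among spans under 10 kb 44.2%. To compare coverage, each gene's coverage was taken as a share of all coverage of its group. A gene was called lower or higher when its share differed at least 2-fold and the exact 95% interval of the ratio did not include equal shares. These intervals cover counting error only, and treat coverage as separate counts. Amplified reads are not separate molecules and neighbouring sites can share reads, so the intervals are likely too narrow.

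By that rule 8 of the 10 genes were lower in serum-2i than in serum Tdg cells, none was higher, and Otx2 and Grhl2 lay between. Of 13980 protein-coding genes with a ratio, 27.0% were called lower and 25.5% higher. Span length moved with the ratio: among spans under 10 kb, 54.9% were lower and 10.3% higher, and among spans over 100 kb 3.63% were lower and 48.6% higher. Of the 10 genes, 7 have spans under 10 kb, and all 7 were called lower. Some of these, such as Pou3f1 and Zic1, met the minimum of summed coverage only through serum Tdg cells, where they are high. The part of span length in the result was not tested. The median log2 ratio was -2.88 for the 10 genes, -0.04 for all protein-coding genes and -1.18 for spans under 10 kb. Summed over all windows, with sites in overlapping windows counted once, the log2 ratio was -1.73 (interval -1.78 to -1.69). Grhl2 held 114 of the 179 serum-2i sites, and without it the ratio was -2.79 (interval -2.86 to -2.71).

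**Figure D2:**
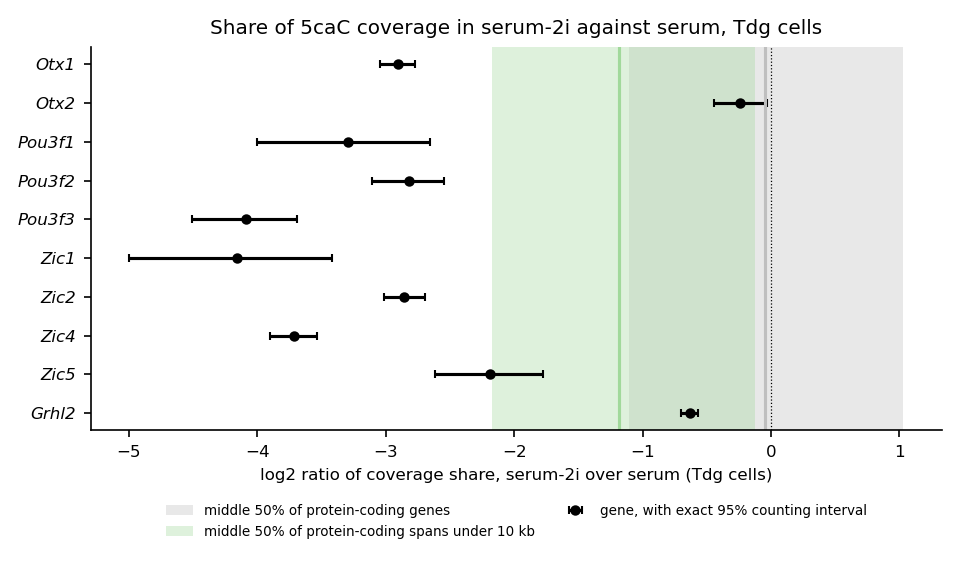
Log2 ratio of the coverage share in serum-2i over serum Tdg cells (horizontal axis) for each gene, with its exact 95% counting interval. Shading marks the middle 50% of protein-coding genes (grey) and of protein-coding spans under 10 kb (green), with lines at their medians of -0.04 and -1.18, and 8 genes lie below -2, between -2.19 (Zic5) and -4.16 (Zic1).

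The Otx paralogues parted in this comparison. Otx1 (gene ID 18423, chromosome 11, 21994764 to 22001651) had no listed site in either wt group, 63 sites with a summed coverage of 1205 in serum Tdg and 18 sites with 265 in serum-2i Tdg cells. Its share was 7.50-fold smaller in serum-2i (log2 ratio -2.91, interval -3.05 to -2.77). At 5.79 sites per kb in serum Tdg cells, Otx1 was denser than 99.7% of protein-coding genes, and at 1.65 in serum-2i denser than 95.9%. Otx1 was therefore the densest of the 10 genes in both media. Its site of highest coverage lay at chromosome 11, 21999486, inside the gene, with 82.5 in serum and 22.5 in serum-2i. The site at 21999723 led in serum-2i with 38.5, against 59 in serum. Both also lie in the span of the lncRNA gene Gm32517, as did 33.3% of the Otx1 sites and 49.8% of its coverage in serum. The table has no strand, so such sites were not assigned to either gene.

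Sites of Otx1 stood in tight groups. Serum Tdg cells had 4 runs here, a run being 5 or more sites each within 100 bp of the next. The run with the most sites had 10 in 128 bp (chromosome 11, 21998414 to 21998541), with coverage from 6 to 30, and 4 of its sites were also listed in serum-2i. A run of 8 sites in 233 bp lay at the far edge of the lower flank (21992772 to 21993004), and none of its sites was listed in serum-2i. Of the 18 serum-2i sites, 94.4% were also listed in serum, and coverage was higher in serum at 16 of the 17 shared positions. The serum-2i sites of Otx1 were thus nearly a subset of its serum sites.

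Otx2 (gene ID 18424, chromosome 14, 48656781 to 48667644) had 15 sites with a summed coverage of 170.5 in serum Tdg and 16 sites with 238.5 in serum-2i Tdg cells. The wt groups each listed a single site, with coverage 5 in serum and 8.5 in serum-2i. The log2 ratio of the media in Tdg cells was -0.24 (interval -0.44 to -0.03), the nearest to 0 of the 10 genes. At a common coverage minimum of 10 it was -0.01, with an interval that holds 0. It was -0.35 with 5 kb flanks, -0.51 without flanks and -0.79 (interval -1.90 to 0.33) by number of sites. By number of sites Grhl2, at -0.63, was nearer to 0 than Otx2. In both Tdg groups 6 positions were listed, which is 40% of the serum and 37.5% of the serum-2i sites, against 52.8% and 28.7% over the whole table. The highest serum-2i site, at chromosome 14, 48660630 (coverage 38), was not listed in serum, where the highest value was 20 at 48661599. That serum site was one of a run of 5 sites in 234 bp (48661366 to 48661599), 3 of which were also listed in serum-2i. Beyond the upper end of the span, where the outermost start lies, serum-2i listed 5 sites and serum 3.

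**Figure D3:**
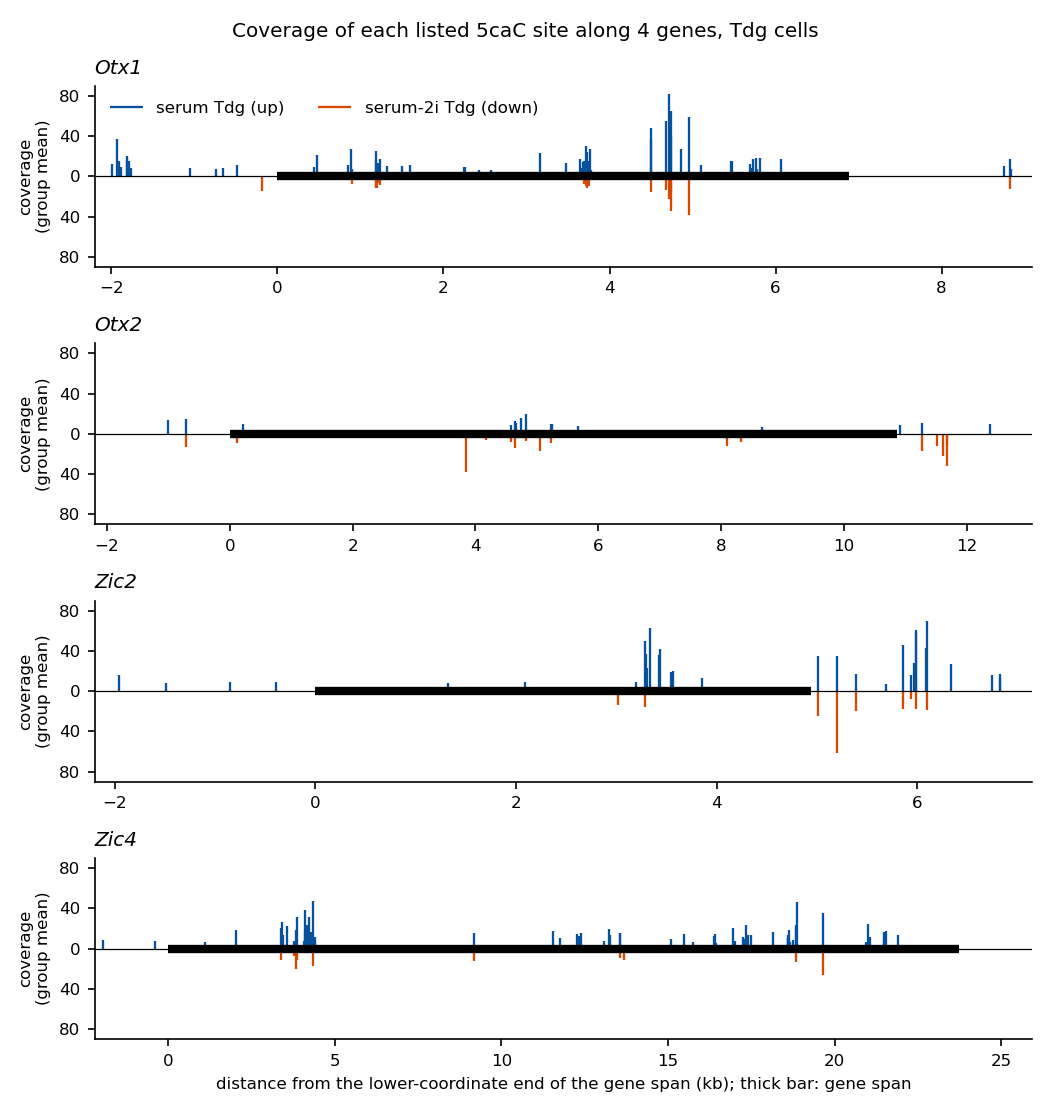
Coverage of each listed site (vertical axis, group mean, serum Tdg upward and serum-2i Tdg downward) against the distance from the lower-coordinate end of the gene span in kb, with the span as a thick bar. Otx1, Zic2 and Zic4 carry grouped sites that reach 82.5, 70 and 47 in serum and fewer, mostly lower sites in serum-2i. Otx2 has sites that reach 20 in serum and 38 in serum-2i, at mostly different positions.

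The 3 Pou3f genes had few sites in their short windows, most of them in serum Tdg cells. Per kb, Pou3f1, Pou3f2 and Pou3f3 were denser than 83.5%, 91.8% and 94.2% of protein-coding genes in serum Tdg cells. In serum-2i Tdg cells these values were 34.0%, 55.7% and 53.1%. Together they held 36 sites in serum and 8 in serum-2i Tdg cells, with a log2 ratio of -3.32 (interval -3.53 to -3.11). Pou3f1 (gene ID 18991, chromosome 4, 124657646 to 124660655) had 6 sites with a coverage of 68.5 in serum and a single site with 11.5 in serum-2i (log2 ratio -3.30, interval -4.00 to -2.65). That site, at 124660196, was also its highest in serum, with 24.5. The ratio of Pou3f1 rests on this position alone on the serum-2i side, and was -2.56 without flanks, -2.42 with 5 kb flanks and -2.65 at a common minimum of 10.

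Pou3f2 (gene ID 18992, chromosome 4, 22482095 to 22488366) had 15 sites with a coverage of 284.5 in serum and 4 with 66.5 in serum-2i Tdg cells, a 7.06-fold smaller share (log2 ratio -2.82, interval -3.10 to -2.54). Its highest site in either medium was the same, in the lower flank at 22480454, with nearly equal coverage of 42 in serum and 38 in serum-2i. That position alone made up 57.1% of the serum-2i coverage of Pou3f2, against 14.8% in serum. In serum wt cells Pou3f2 had 2 sites 6 bp apart, at 22487630 and 22487636, with coverage 4 and 4.5, and neither was listed in a Tdg group.

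Pou3f3 (gene ID 18993, chromosome 1, 42695768 to 42700210) had 15 sites with a coverage of 288.0 in serum and 3 with 28.0 in serum-2i Tdg cells. Its share was 17.0-fold smaller in serum-2i (log2 ratio -4.08, interval -4.51 to -3.69). The size of this ratio depended on the setting, at -2.64 with 5 kb flanks, -3.20 by number of sites and -5.43 at a common minimum of 10. The serum-2i sites, at 42699546, 42699554 and 42699591, stood at 10, 8.5 and 9.5, against 45, 42.5 and 41 in serum, where they were the highest of the gene. They lie toward its downstream end, from 3778 to 3823 bp past the start. A further 6 serum sites lay in the flank before the start, in the span of the lncRNA gene Pantr1, and none was listed in serum-2i. All Pou3f3 sites also lie in the span of the lncRNA gene Gm46091, so without sites in the spans of other genes no ratio remained for Pou3f3.

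The Zic genes held 110 sites in serum and 23 in serum-2i Tdg cells, with a log2 ratio of -3.20 (interval -3.32 to -3.09), and all 4 were called lower. Zic4 (gene ID 22774, chromosome 9, 91365631 to 91389351) led with 70 sites and a coverage of 1110.5 in serum against 10 sites and 139.5 in serum-2i. That was a 13.1-fold smaller share (log2 ratio -3.71, interval -3.90 to -3.53). Its run with the most sites had 14 in 328 bp (91369717 to 91370044), starting 745 bp past the annotated start in the promoter table. Coverage in this run ran from 6.5 to 47 in serum, and a single site of it was listed in serum-2i. A second stretch in the downstream part of the gene held runs of 7 sites (91382896 to 91383115) and 6 sites (91384219 to 91384293), none of which was listed in serum-2i. Its highest serum-2i site, at 91385277, had 26.5, against 35.5 in serum and 7.5 in serum-2i wt cells. Nearly all of the serum-2i sites, 90%, were also serum sites.

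Zic1 (gene ID 22771, chromosome 9, 91358058 to 91365768), the neighbour of Zic4, was sparse by comparison. It had 7 sites with a coverage of 86.5 in serum Tdg cells and a single site with 8 in serum-2i Tdg cells, a log2 ratio of -4.16 (interval -5.00 to -3.42), the lowest of the 10 genes. Of its serum sites 4 also lay in the Zic4 window, since the windows overlap. The serum-2i site, at 91361261, was not listed in serum. The ratio of Zic1 rests on this site alone on the serum-2i side, and at a common minimum of 10 no ratio remained. Zic1 thus shared no position between the media, with few sites to compare.

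Zic2 (gene ID 22772, chromosome 14, 122475384 to 122480328) had 31 sites with a coverage of 869.5 in serum and 9 with 198.5 in serum-2i Tdg cells, a 7.22-fold smaller share (log2 ratio -2.85, interval -3.01 to -2.69). Within the span alone, without flanks, the ratio was -4.19. Its mean coverage per site in serum, 28.0, was the highest of the 10 genes, whose means otherwise ran from 11.4 to 19.5. The spans of Gm33769 and 2610035F20Rik held 51.6% of the Zic2 sites and 51.7% of the coverage in serum. Without sites in other spans the Zic2 ratio was -2.35 (interval -2.55 to -2.15). A run of 7 sites inside the gene (122478578 to 122478823) reached 63 in serum, and 1 of its sites was listed in serum-2i. Another run of 7 sites lay past the upper end in the lncRNA gene Gm33769 (122481238 to 122481478) and reached 70, with 4 sites also listed in serum-2i. Between the runs, just past the span, 2 positions had more coverage in serum-2i than in serum before any scaling. The serum-2i group had 1.65 times the summed coverage of the serum group. At 122480779 coverage was 20 against 17.5. At 122480580 coverage was 61 in serum-2i and 35.5 in serum Tdg cells, and serum-2i wt cells listed the same position with 9. The latter was the only Zic2 site of a wt group and made up 30.7% of the serum-2i Tdg coverage of the gene.

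Zic5 (gene ID 65100, chromosome 14, 122459160 to 122465658), the neighbour of Zic2, had 6 sites with a coverage of 92.5 in serum and 3 with 33.5 in serum-2i Tdg cells (log2 ratio -2.19, interval -2.61 to -1.78). Its ratio was the smallest in size among the genes called lower, and by number of sites alone it was not called (log2 ratio -1.88, interval -4.51 to 0.35). At a common minimum of 10 it was -3.17. The serum-2i sites lay close together in the middle of the gene, at 122461881, 122462216 and 122462250, with coverage of 8.5, 8.5 and 16.5. The 2 of them also listed in serum had 11 and 15 there. Neither wt group listed a site in Zic5.

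Grhl2 (gene ID 252973, chromosome 15, 37232821 to 37363569), whose span of 131 kb is by far the longest here, had 96 sites with a coverage of 1873.5 in serum and 114 with 1993.5 in serum-2i Tdg cells. The log2 ratio was -0.63 (interval -0.70 to -0.57), which is between by the 2-fold rule. Among protein-coding spans over 100 kb the median was 0.95 and the middle 50% ran from 0.17 to 1.80, so Grhl2 lay below most spans of its length class. In serum-2i wt cells Grhl2 listed 12 sites with a coverage of 87.5, and serum wt cells listed none.

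Sites of Grhl2 were spread differently along the gene in the media. In the first 10 kb of the span serum Tdg cells had 23 sites (2.30 per kb) and serum-2i Tdg cells 17 (1.70 per kb). From 60 to 90 kb there were 13 sites (0.433 per kb) in serum and 23 (0.767 per kb) in serum-2i, and from 90 kb to the upper end 4 (0.0982 per kb) and 19 (0.466 per kb). The log2 ratio of coverage was -1.19 (interval -1.33 to -1.05) in the lower flank and first 10 kb and -0.47 (interval -0.54 to -0.39) in the rest of the window. That rest was not uniform. Unscaled coverage was 683.5 in serum and 488.5 in serum-2i from 10 to 30 kb, and 372 and 442 from 30 to 60 kb. It was 229 and 386.5 from 60 to 90 kb, and 76 and 295.5 from there to the upper end. These bins were set after the values were seen. The 12 serum-2i wt sites were scattered, with 1 in the lower flank at the highest coverage, 16, and 3 past 90 kb.

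**Figure D4:**
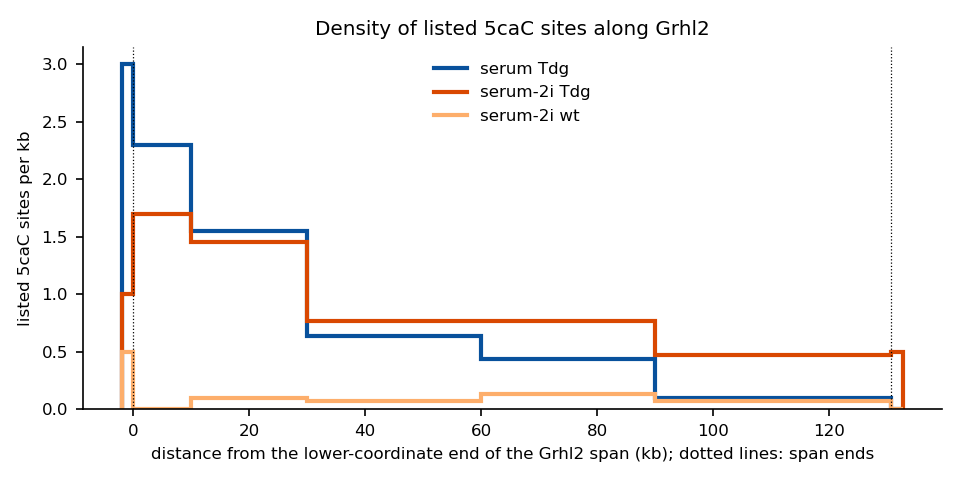
Listed 5caC sites per kb along Grhl2 (vertical axis) against the distance from the lower-coordinate end of its span in kb, in bins of unequal width, for 3 groups; serum wt cells listed no site. Serum Tdg falls from 2.30 sites per kb in the first 10 kb to 0.0982 past 90 kb, and serum-2i Tdg from 1.70 to 0.466.

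Of the 33 sites in serum Tdg runs of Grhl2, 19 were also listed in serum-2i, against 18 of 77 sites in runs of the other genes. A run at 37246842 to 37247084 held the highest serum site of the gene (37246928, coverage 68 in serum and 43.5 in serum-2i), and all 7 of its serum sites were also listed in serum-2i. A run of 5 sites in 80 bp, at 37241748 to 37241827, was listed in full in both media, and reached 51 in serum and 57 in serum-2i. The highest serum-2i site, at 37305678, had 58.5 there and 38 in serum. Over the 4 groups, the protein-coding genes most like Grhl2 in their numbers of listed sites were Prtg (0, 10, 104 and 118 sites in serum wt, serum-2i wt, serum Tdg and serum-2i Tdg cells), Anks1b (0, 11, 75 and 104) and Meis2 (0, 9, 98 and 96). Their Euclidean distances on the log2 scale were 0.281, 0.396 and 0.467. They were ranked on 4 values each, by a rule that ignores span length.

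Positions listed in both Tdg groups allow the same CG to be compared. There were 108 such positions, which are 33.8% of the serum and 60.3% of the serum-2i sites of these genes. Over the whole table the shares were 52.8% and 28.7%. Grhl2 held 58 of the shared positions, with coverage higher in serum at 31 and higher in serum-2i at 24. In the other 9 genes coverage was higher in serum at 43 of 50 shared positions (86.0%), with medians of 22.8 in serum and 12 in serum-2i. Over all 197737 shared positions of the table, 47.4% were higher in serum, and the medians were 17.5 and 18.5. These coverages are not scaled to group depth. As shares, the median log2 ratio of serum-2i over serum was -0.88 in Grhl2 and -1.55 in the other 9 genes. Over all shared positions it was -0.67. Positions of the same run share reads and are not independent. A position is compared only if it was listed in both groups.

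**Figure D5:**
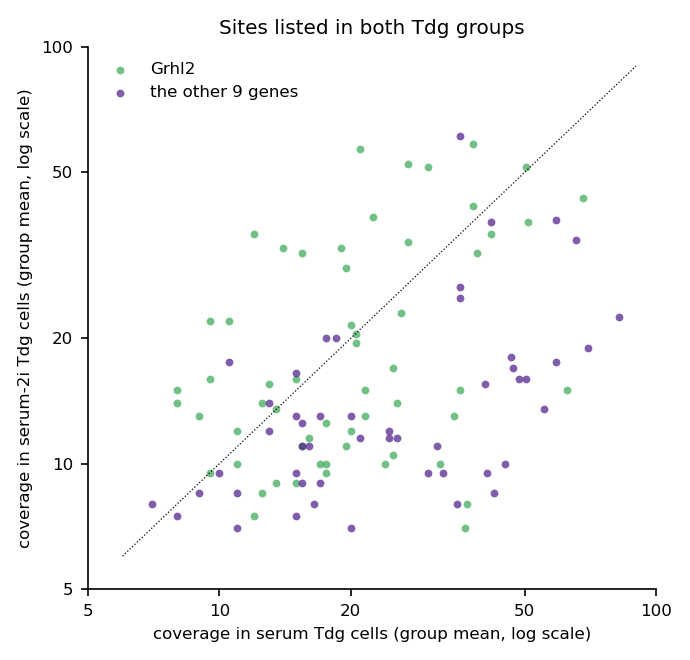
Coverage in serum-2i Tdg cells (vertical axis) against serum Tdg cells (horizontal axis), group means on log scales. Points are the 108 positions listed in both groups, and the dotted line marks equal coverage, not scaled to group depth. Most points of the other 9 genes (43 of 50) lie under the line, while those of Grhl2 lie on both sides (31 higher in serum, 24 in serum-2i).

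Sites of these genes were also grouped more tightly in serum. In serum Tdg cells 70.6% of the 320 sites had another listed site within 100 bp, against 61.5% of all sites of the group. In serum-2i Tdg cells 49.7% of the 179 sites did so, against 53.8% of all sites. Serum Tdg cells had 15 runs in the windows, and serum-2i Tdg cells had 5, of which 4 lay in Grhl2 and the other in Otx1.

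Comparisons with wt cells rest on few sites, and they share the Tdg groups with the comparison of media. In serum-2i the windows together had a log2 ratio of 0.86 (interval 0.67 to 1.05) for Tdg over wt cells, and Otx2, Zic2, Zic4 and Grhl2 were listed in both groups. Otx2 was called higher in Tdg cells (log2 ratio 1.02, interval 0.32 to 1.81), where 11.3% of 12154 protein-coding genes were called higher and 20.7% lower. With a common minimum of 6 or by number of sites Otx2 was not called, and within the span alone it listed no serum-2i wt site. Grhl2 (0.72, interval 0.50 to 0.94), Zic2 (0.67, interval -0.01 to 1.44) and Zic4 (-0.42, interval -1.0 to 0.20) lay between. At a common minimum of 10 Grhl2 was called higher (1.68, interval 1.18 to 2.23), and Otx2 had no ratio. With 5 kb flanks Otx2 stood at 1.77. The other 6 genes had a listed site in serum-2i Tdg cells alone of these groups. Of the 16 serum-2i wt sites 7 were also listed in serum-2i Tdg cells, and 8 were listed in neither Tdg group. Over the whole table these shares were 49.1% and 48.2%.

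In serum the windows together had a log2 ratio of 0.69 (interval 0.26 to 1.16) for Tdg over wt cells, and 0.15 (interval -0.28 to 0.62) without Grhl2, which serum wt cells did not list. Otx2, Pou3f2 and Pou3f3 were called lower in Tdg than in wt cells, with log2 ratios of -2.35 (interval -3.24 to -1.27), -2.37 (interval -3.07 to -1.58) and -1.59 (interval -2.48 to -0.52). This was also the call for 54.8% of the 3829 protein-coding genes with a ratio, against 4.23% called higher. A gene entered only if the sparse serum wt group listed at least 1 of its sites. Zic4 lay between (1.09, interval -0.03 to 2.54). Of the 5 serum wt sites in these genes, 1 was also listed in serum Tdg cells (Zic4, 91386577, coverage 3 in wt and 7 in Tdg cells) and 4 in neither Tdg group. Of all serum wt sites, 54.5% were also listed in serum Tdg cells and 35.5% in neither. Between media in wt cells only Otx2 and Zic4 were listed in both, and both were called lower in serum-2i (log2 ratios -3.60, interval -4.81 to -2.31, and -2.2, interval -3.50 to -0.63), as were 60.9% of 3520 protein-coding genes, with 4.69% higher. At a common minimum of 6 no serum wt site remained in these genes.

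Other genes of the primed state and paralogues, 27 in all, were also lower in serum-2i more often than higher. Of 20 with a ratio that met the minimum of summed coverage, 12 were lower in serum-2i than in serum Tdg cells, 1 was higher and 7 lay between, with a median log2 ratio of -1.41. Over all protein-coding genes 27.0% were lower, and 54.9% of those with spans under 10 kb. Of the 20 genes 9 have such spans, and 8 of these were lower, against 4 of the other 11. The lowest were Foxd3 (-3.57, 3 sites in serum-2i against 23 in serum), a forkhead factor of the epiblast and neural crest, Lefty1 (-2.83, 10 against 24), a NODAL antagonist, and Eomes (-2.60, 20 against 54), a T-box factor of mesendoderm. At the other end stood the adhesion gene Cdh2 (2.14, 48 sites against 6), Grhl3 (0.56, 92 against 48) and the ETS factor gene Etv5 (-0.10, 110 against 79). Among paralogues of the 10 genes, Grhl1 had a ratio of -0.67 (36 sites against 25), and Crx, a relative of the Otx genes, had 7 sites in serum-2i and none listed in serum. Pou3f4, a paralogue of the Pou3f genes, had 2 sites in serum alone, which is too little coverage for a ratio.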

How the data were processed

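Per the labels' protocols, glucose was put on 5-hydroxymethylcytosine and a methyl group on bare CGs to block them. The carboxyl group of 5caC was then exchanged for an azide tag by an engineered methyltransferase, and tagged fragments were enriched, primed and sequenced on an Ion Proton. The deposited table holds the authors' coverage per position and group (a signal in multiples of 0.5), on build mm10 per the submitters' processing notes; the sources used here name no aligner, caller or listing rule. Replicates and the control have no values of their own. Of 15084 listed positions inside promoter windows, all (100%) fall on the C of a CG when counted from 0, so 1 was added to each position printed here, which makes them 1-based.

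Gene spans came from RefSeq (GRCm38.p6, the assembly of mm10), without exons or strand. Genes needed a mean summed coverage of 20 over the 4 groups (all 10 passed). Sparse genes, such as Pou3f1 (68.5 in serum Tdg and 11.5 in serum-2i Tdg cells) and Zic1 (86.5 and 8), passed only through serum Tdg coverage. That is the group in which they are high, so the filter is not independent of their calls. Intervals are exact conditional Clopper-Pearson 95% intervals, from coverage times 2 replicates (scipy 1.17.1, Python 3.11.15), checked on simulated counts. The simulated counts were drawn as separate counts, so the check does not cover shared or amplified reads. The members, the list of other primed-state genes and the size rule were chosen with earlier results of these data known. All members are described; of the list, the 3 highest, the 3 lowest and the paralogues are named, except 1 that is not reported here. Promoters printed are those with listed sites, plus that of Zic1, chosen after the values were seen. Sites named are the highest of each gene and Tdg group; the runs and other sites were chosen after their values were seen. Alternatives were flanks, coverage minimum, sites in place of coverage, scaling, overlapping genes and leaving out each gene.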

Additional observations from a re-analysis of the deposited data

Results flagged for a closer look

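Otx2 was called in opposite directions for Tdg against wt cells in the 2 media. Its log2 ratio of coverage shares was 1.02 in serum-2i and -2.35 in serum. The difference between them was not tested. In serum 54.8% of 3829 protein-coding genes with a ratio were called lower, and in serum-2i 11.3% of 12154 were called higher. Each wt value rests on 1 listed site, with a coverage of 8.5 in serum-2i and 5 in serum. Tdg cells had a summed Otx2 coverage of 238.5 in serum-2i and 170.5 in serum. Before scaling to shares, coverage was thus higher in Tdg than in wt cells in both media.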

How the results depend on the processing

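No paired analysis was possible because the table holds 1 mean value per group, and for the same reason no replicate could be left out. The count of genes lower in serum-2i than in serum Tdg cells was 7 or 8 under every alternative run, and the log2 ratio of all windows together ran from -1.96 (5 kb flanks) to -1.48 (without sites in other spans), or from -2.79 (without Grhl2) to -1.52 (without Zic4) when each gene was left out. Of the 68 values of single genes in this comparison 64 kept their call or interval, none was reversed, and Zic5 lost its call by number of sites. For Tdg over wt in serum-2i, the count of genes called higher, 1 as reported, was 0 within spans without flanks, 0 at a common minimum of 6 and 0 by number of sites. At a common minimum of 10 it was again 1, but the gene was Grhl2 and not Otx2. Under alternatives the ratio of all windows passed 2-fold, at 1.14 without flanks, 2.22 at a common minimum of 10 and 1.06 with the median of gene ratios at 0. Leaving out each gene gave 0.73 (without Otx1) to 1.20 (without Grhl2). Genes with a listed site in serum wt cells were 0 at a common minimum of 6 and 0 at 10, and in serum-2i wt cells 2 without flanks and 1 at a common minimum of 10. The median ratio over all genes, which the median scaling sets to 0, was -0.04 for the media and -0.20 for the genotypes in serum-2i. The causes of these changes were not tested. Depth limits all wt values, and densities are per kb and not per CG.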
